A study of Mus musculus with 4 samples.

Results

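The genes described here encode the secreted and membrane-anchored metalloproteinases that cut the extracellular matrix, the related protease Adam12, and the inhibitors that block them. They are Mmp2, Mmp3, Mmp9, Mmp10, Mmp13, Mmp14, Adam12, Timp1, Timp2 and Timp3, 10 of the 8676 genes tested, and were taken by gene symbol from the annotation of the array. All 14 probes of these genes were read. The arrays are 4 two-colour arrays of RIF-1 cells, a mouse fibrosarcoma line, with RNA interference against Bre1a, whose gene is Rnf20, or against Bre1b, whose gene is Rnf40. The groups are Bre1a knockdown over no knockdown, Bre1a knockdown over a mock knockdown aimed at GFP, Bre1b knockdown over no knockdown and Bre1b knockdown over mock, with 1 array each. Knockdown RNA was labelled with Cy5 and control RNA with Cy3 on every array, so a dye bias of a gene cannot be told apart from an effect against the controls. The sources used here do not state the time of harvest, the interfering sequences or whether the arrays hold separate cultures. The p-values therefore cover spread between arrays alone, and that spread may be technical. In the reported fit the control is a term of the model. A gene's own part of the error is thus how far the difference between the knockdowns disagreed between the controls. It does not hold the SD printed beside a mean, which is between the arrays of a knockdown.

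Matrix metalloproteinases are made as inactive precursors that hold a zinc ion at the active site, and proteolytic removal of the propeptide switches them on. Each Timp protein binds active enzymes and blocks them, while Timp2 also helps Mmp14 at the cell surface to activate the Mmp2 precursor. Fibroblasts and fibrosarcoma cells are well-known sources of these enzymes, and many of the inducible Mmp genes are targets of the AP-1 transcription factors. The proteins of Rnf20 and Rnf40 pair to form the ubiquitin ligase of histone H2B, a mark of transcribed genes.

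The depositors' values are log2 ratios, so 1 unit is a doubling and a negative value means less RNA in the knockdown. The targeted gene Rnf20 read -1.60 (no knockdown) and -1.35 (mock) on the Bre1a arrays, and the targeted gene Rnf40 read -1.49 and -1.23 on the Bre1b arrays. Between 19874 and 22255 spots per array had a value, and the median absolute deviation was 0.624 for Bre1b against mock but 0.335 to 0.420 for the other arrays. Of the 11 mesenchymal markers listed 9 had values on all arrays, against 3 of 7 epithelial, 1 of 11 leukocyte and 0 of 6 endothelial markers. A ratio does not show a level, so these counts only say which spots were kept. The epithelial keratins Krt8 (mean -1.25) and Krt18 (-1.21) were lower after Bre1a knockdown, and Krt8 (-0.71) and Epcam (-0.39) after Bre1b knockdown (limma adjusted p from 0.0124 to 0.0212). These Bre1b means were not alike against the controls. Krt8 read 0.20 against no knockdown and -1.62 against mock, and Epcam -0.76 and -0.01. Epcam was at 0.18 after Bre1a knockdown and Krt18 at -0.11 after Bre1b knockdown, and neither was called (limma adjusted p = 0.0637 and 0.0992). Of the 9 mesenchymal markers 1 rose, Col1a1 (0.48), and 4 fell after Bre1a knockdown, while 0 rose and 2 fell after Bre1b knockdown. In percent these are 11.1 and 44.4 for Bre1a, beside 21.1 and 19.9 over all genes. For Bre1b they are 0 and 22.2, beside 32.3 and 28.2. S100a4, among the 9, gave no measured difference, as described for Mmp14 below. The growth factor receptors Pdgfra (-0.86 and -1.30) and Pdgfrb (-0.86 and -0.59) fell in both. The one leukocyte marker, Mpo, was at 0.23 after Bre1a knockdown and -0.88 after Bre1b knockdown (limma adjusted p = 0.0322 for the second). Their part in the results below was not tested.

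The promoters of Mmp13, Mmp3 and Mmp10 are shown because these 3 genes are neighbours in 1 cluster of chromosome 9 and their values, given further on, went different ways. Each stretch holds 250 bases before and 50 after the RefSeq start in build GRCm38.p6, on the plus strand. Capitals mark an AP-1 motif (TGAGTCA on either strand) and a TATA motif (TATAAA on either strand), which were found by exact search and do not overlap.
Mmp13, chr9:7272264-7272563: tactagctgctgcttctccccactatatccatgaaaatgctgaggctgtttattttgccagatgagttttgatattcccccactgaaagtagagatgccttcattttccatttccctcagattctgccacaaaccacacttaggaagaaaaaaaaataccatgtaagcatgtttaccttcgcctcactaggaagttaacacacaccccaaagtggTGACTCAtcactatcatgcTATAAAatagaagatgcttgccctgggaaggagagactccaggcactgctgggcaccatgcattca
Mmp3, chr9:7445572-7445871: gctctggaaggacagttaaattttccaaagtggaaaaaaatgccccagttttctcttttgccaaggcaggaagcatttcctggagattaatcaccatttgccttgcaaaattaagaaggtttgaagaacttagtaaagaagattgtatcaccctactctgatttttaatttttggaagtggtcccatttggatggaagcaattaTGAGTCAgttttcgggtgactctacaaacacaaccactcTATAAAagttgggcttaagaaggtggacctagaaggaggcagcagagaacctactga
Mmp10, chr9:7502092-7502391: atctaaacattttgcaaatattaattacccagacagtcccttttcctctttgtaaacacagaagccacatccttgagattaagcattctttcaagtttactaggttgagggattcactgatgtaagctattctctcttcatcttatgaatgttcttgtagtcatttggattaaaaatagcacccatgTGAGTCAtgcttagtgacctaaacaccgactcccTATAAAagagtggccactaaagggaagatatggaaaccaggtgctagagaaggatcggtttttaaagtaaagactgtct
The AP-1 motif starts 35 bases before the start site in Mmp13, 46 in Mmp3 and 63 in Mmp10, and a TATA motif lies between it and the start site in all 3. Among the 7 genes of the family with a promoter in the table, these 3 held both motifs, and Mmp14, Timp1, Timp2 and Timp3 held neither. Of 32851 promoters of the same length in the table, 5.20% hold the AP-1 motif, 13.6% the TATA motif and 0.941% both. A match of letters describes the sequence only, and binding was not measured here.

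Mmp13, the collagenase that cleaves fibrillar collagens, had the lowest mean of the family after Bre1a knockdown. Its 2 probes read -0.76 and -0.88 on the Bre1a array against no knockdown, and -2.77 and -2.32 on the Bre1a array against mock. On the Bre1b arrays they read 0.36 and 0.27 against no knockdown, and -1.53 and -1.60 against mock. Every value against mock was therefore low, while against no knockdown only the Bre1a values lay below 0. Averaged over probes, Mmp13 was at -1.68 ± 1.22 after Bre1a knockdown (SD, n = 2; limma adjusted p = 0.0212) and at -0.63 ± 1.33 after Bre1b knockdown (SD, n = 2; limma adjusted p = 0.0109). The fit takes the difference between the controls out of its error, so the Bre1b value was called although it had opposite signs against the 2 controls. Scaling the arrays to 1 spread gave -0.40 and no call (limma adjusted p = 0.0556). The 2 probes differed by 0.165 in the Bre1a mean and by 0.0875 in the Bre1b mean, against medians of 0.137 and 0.151 over the 2048 genes with 2 complete probes.

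Mmp3 and Mmp10, the stromelysins 1 and 2, cut proteoglycans, laminin and fibronectin and can activate other Mmp precursors. They went separate ways after Bre1a knockdown. Mmp10 read -1.26 against no knockdown and -0.95 against mock on the Bre1a arrays, and 0.39 and 0.72 on the Bre1b arrays, from 1 probe. The signs were thus opposite between the knockdowns, and how many of all genes share this was not counted. Mmp10 fell after Bre1a knockdown (-1.10 ± 0.22; SD, n = 2; limma adjusted p = 0.0212), to 46.6% of the control, and rose after Bre1b knockdown (0.55 ± 0.24; SD, n = 2; limma adjusted p = 0.00992). The rise after Bre1b knockdown was not called with the arrays scaled to 1 spread (limma adjusted p = 0.0769). Mmp3 was above 0 on all 4 arrays with both probes. Its probes read 0.14 and 0.05 on the Bre1a array against no knockdown, 0.65 and 0.59 on that against mock, 0.48 and 0.36 on the Bre1b array against no knockdown and 0.90 and 0.92 on that against mock. Mmp3 rose after Bre1a knockdown (0.36 ± 0.37; SD, n = 2; limma adjusted p = 0.0255) and after Bre1b knockdown (0.66 ± 0.35; SD, n = 2; limma adjusted p = 0.00944), and the lowest of its values was close to the control. The Bre1a call was lost with the arrays scaled to 1 spread (limma adjusted p = 0.0766) and with a minimum change of 1.2-fold (limma adjusted p = 0.225). Mmp3 and Mmp10 are alike in sequence, and whether their probes cross-hybridise was not tested.

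Mmp9 and Mmp2, the gelatinases B and A, cleave denatured collagen and the type IV collagen of basement membranes. Mmp9 read -0.77 against no knockdown and -1.33 against mock on the Bre1a arrays, and -1.29 and -1.87 on the Bre1b arrays. It was the only gene of the family with complete values below 0 on all 4 arrays. Mmp9 fell to 48.3% of the control after Bre1a knockdown (-1.05 ± 0.39; SD, n = 2; limma adjusted p = 0.0212) and to 33.4% after Bre1b knockdown (-1.58 ± 0.41; SD, n = 2; limma adjusted p = 0.00944). Mmp2 moved less, with -0.22 and -0.71 on the Bre1a arrays and 0.35 and -0.16 on the Bre1b arrays, against no knockdown and mock in that order. Mmp2 fell after Bre1a knockdown (-0.46 ± 0.35; SD, n = 2; limma adjusted p = 0.0231), a call lost with a minimum change of 1.2-fold (limma adjusted p = 0.0769). After Bre1b knockdown it was at 0.10 ± 0.37 with an interval of -0.03 to 0.22 (95%, limma; n = 2; limma adjusted p = 0.122), and its values had opposite signs against the 2 controls.

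Mmp14, the membrane-anchored enzyme that activates the Mmp2 precursor, gave no measured difference. Its values were 0.08, 0.15, 0.11 and -0.08 in the order Bre1a against no knockdown and mock, Bre1b against no knockdown and mock. These equal, within 0.002, a value that repeats on 702 to 843 spots of each array and that may stand for spots of ratio 1 or for spots saturated in both channels. Timp1 and Timp2 sat at the same repeated value on all 4 arrays, as did 153 of the 8676 genes (1.76%). For these 3 genes the fit gave no call (limma adjusted p from 0.261 to 0.854), and the data do not show whether they changed.

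Timp3, the inhibitor that binds to the matrix and also blocks Adam proteases, was measured off the repeated value. Its 2 probes read -0.64 and -0.77 on the Bre1a array against no knockdown and -0.69 and -0.55 on that against mock. On the Bre1b arrays they read 0.20 and 0.11 against no knockdown, and 0.14 and 0.66 against mock. All Bre1a values lay below 0 and all Bre1b values above it, and here too the share of all genes with this pattern was not counted. Timp3 fell to 63.2% of the control after Bre1a knockdown (-0.66 ± 0.06; SD, n = 2; limma adjusted p = 0.0227) and rose after Bre1b knockdown (0.28 ± 0.17; SD, n = 2; limma adjusted p = 0.0316). The Bre1b call was lost with the arrays centred on their medians (limma adjusted p = 0.0512) or scaled to 1 spread (0.118), with the first probe alone (0.17; limma adjusted p = 0.0594) and with a minimum change of 1.2-fold (limma adjusted p = 0.743). With that minimum the Bre1a call was lost too (limma adjusted p = 0.0515). The probes were 0.0045 apart in the Bre1a mean and 0.217 apart in the Bre1b mean, the second being above the median gap of 0.151 over genes with 2 complete probes.

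Adam12, a membrane protease with a disintegrin domain that sheds growth factor precursors, had 2 probes that disagreed. The probe used in the test read 1.96 on the Bre1a array against no knockdown, -0.23 on that against mock, -4.06 on the Bre1b array against no knockdown and -2.70 on that against mock. The other probe read -0.90 and -0.60 on the Bre1a arrays and -0.79 on the Bre1b array against no knockdown, with no value on the Bre1b array against mock, and so was left out of the test. Against no knockdown the probes thus had opposite signs for Bre1a and differed more than 3 units for Bre1b. By the complete probe Adam12 was at 0.87 ± 1.55 after Bre1a knockdown (SD, n = 2; limma adjusted p = 0.42) and at -3.38 ± 0.96 after Bre1b knockdown (SD, n = 2; limma adjusted p = 0.051), and neither passed the threshold. With both probes averaged where they had values, the Bre1b mean was -2.56 (limma adjusted p = 0.0146). That mean averages -4.06 and -0.79 against no knockdown, but holds the complete probe alone against mock. It is therefore not a fall of this size seen by both probes.

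**Figure D1:**
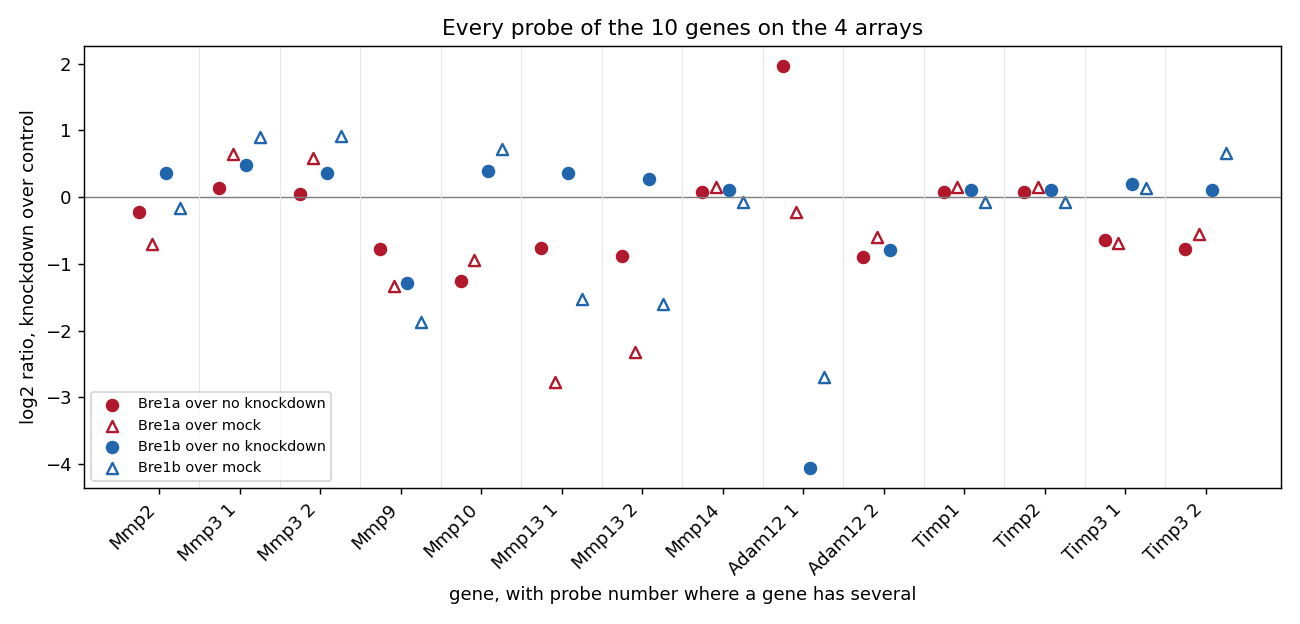
Log2 ratios of knockdown over control (y axis) for all 14 probes of the 10 genes (x axis), red for Bre1a and blue for Bre1b, filled circles against no knockdown and open triangles against mock, 1 point per array. Mmp9 lies below 0 on all 4 arrays, Mmp10 and Timp3 lie below 0 for Bre1a and above 0 for Bre1b, and the values of Mmp14, Timp1 and Timp2 lie between -0.08 and 0.15.

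After Bre1a knockdown 1 of the 10 genes rose and 5 fell, at limma adjusted p under 0.05. Over all 8676 genes 40.9% were called, 21.1% higher and 19.9% lower (1828 and 1723 genes). That split over all genes moved to 1307 higher and 1870 lower with the arrays centred on their medians, and to 539 and 1065 with them also scaled to 1 spread. After Bre1b knockdown 3 rose and 2 fell, while 60.4% of all genes were called, 32.3% higher and 28.2% lower (2800 and 2444 genes). Under that scaling the Bre1b counts were 898 and 1017. The median over the 10 genes was -0.18 for Bre1a and 0.02 for Bre1b, beside 0.03 and 0.02 over all genes. Calls were thus common over the whole array, and the counts of the family are a description. Both comparisons use the same kinds of control RNA and are not independent. Without the control as a term none of the 10 genes was called for either knockdown, with limma adjusted p = 0.083 or more for Bre1a and 0.057 or more for Bre1b, and 3 and 4 of them had an unadjusted p under 0.05. That fit called 0.0231% of all genes for Bre1a and 1.87% for Bre1b.

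The knockdowns were next compared with each other, which removes the control. Of the 10 genes 1 was called higher and 4 were called lower after Bre1a than after Bre1b knockdown, where 24.9% of all genes were called, 11.7% higher and 13.2% lower. Mmp10 was lowest relative to Bre1b, with a difference of -1.65 on the arrays against no knockdown and -1.67 on those against mock (mean -1.66, 95% interval -1.83 to -1.48; limma adjusted p = 0.0372). Mmp13 differed by -1.13 and -0.98 (mean -1.06, 95% interval -1.30 to -0.82; limma adjusted p = 0.0372). For Mmp13 the sign of the Bre1b values depended on the control, but the difference between the knockdowns was alike against both controls.

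Timp3 differed by -0.86 and -1.02 (mean -0.94; limma adjusted p = 0.0372), and Mmp2 by -0.57 and -0.55 (mean -0.56; limma adjusted p = 0.0378). Mmp9 went the other way, being 0.52 and 0.54 higher in Bre1a than in Bre1b knockdown cells (mean 0.53; limma adjusted p = 0.0378), and with the arrays scaled to 1 spread this difference was 0.14 (limma adjusted p = 0.652). Mmp3 differed by -0.33 and -0.29 and did not pass (mean -0.31, 95% interval -0.49 to -0.13; limma adjusted p = 0.052). Adam12 differed by 6.02 and 2.48 by its complete probe (limma adjusted p = 0.0916) and by -0.10 on the arrays against no knockdown by the other. None of these differences was called with the arrays scaled to 1 spread, without the control term, with single probes or incomplete probes, or with a minimum change of 1.2-fold. Without the control term limma called 0% of all genes, with an unadjusted p under 0.05 for 1286 of all genes and for 3 of the 10.

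**Figure D2:**
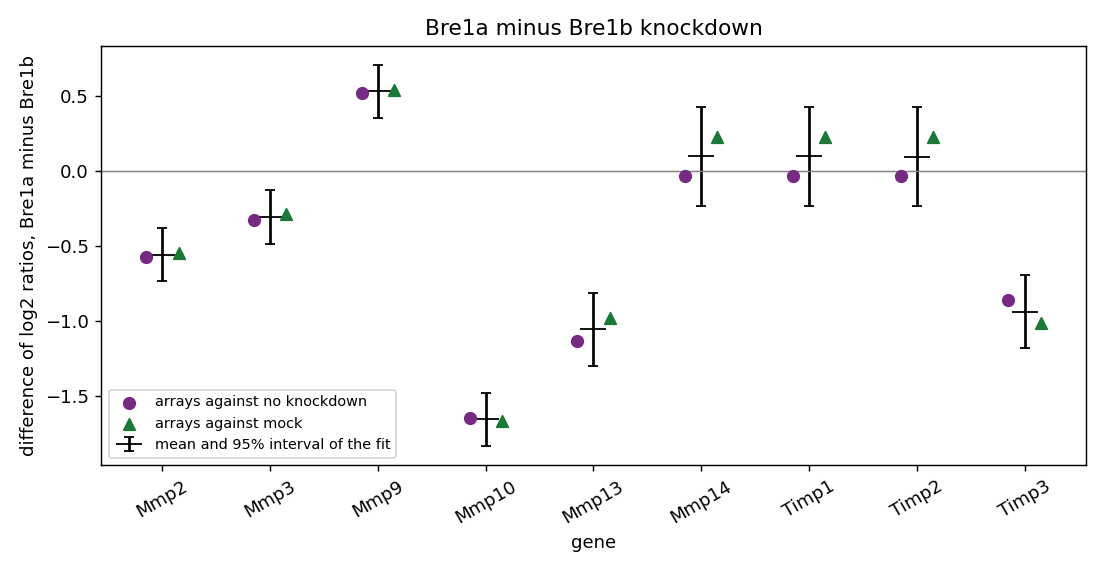
Difference of log2 ratios, Bre1a minus Bre1b knockdown (y axis), for 9 genes (x axis; Adam12 is left out because its 2 differences span several units), with circles for the arrays against no knockdown, triangles for those against mock and black bars for the mean and 95% interval of the limma fit. Mmp10, Mmp13, Timp3 and Mmp2 lie below 0 against both controls, Mmp9 lies above 0 at 0.52 and 0.54, and Mmp14, Timp1 and Timp2 straddle 0.

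Several of these genes also differed between the arrays against no knockdown and those against mock. The difference of mock minus no knockdown was read as the arrays against no knockdown minus those against mock, separately for each knockdown. No array compared the controls directly. The control is also the replicate number of the titles, so a difference between controls cannot be told apart from one between replicates. Mmp13 was 1.73 higher in mock cells by the Bre1a arrays and 1.88 higher by the Bre1b arrays (mean 1.80, 95% interval 1.56 to 2.04; limma adjusted p = 0.0475), which is 3.49-fold. Mmp9 was 0.56 and 0.58 higher in mock cells and Mmp2 0.49 and 0.52 higher, while Mmp3 was at -0.53 and -0.49 (limma adjusted p = 0.0475 for each). With the arrays scaled to 1 spread the mean difference of Mmp9 was 0.13, against 0.57 as reported (limma adjusted p = 0.688 and 0.0475). Mmp10 was at -0.32 and -0.34 and did not pass (limma adjusted p = 0.0571), nor did Timp3, at -0.09 and -0.24 (limma adjusted p = 0.19).

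Thus 3 of the 10 genes were called higher and 1 lower for mock minus no knockdown, beside 13.4% of all genes called, 7.26% higher and 6.12% lower. Adam12 had 2.19 by the Bre1a arrays and -1.36 by the Bre1b arrays, which oppose each other (limma adjusted p = 0.787). The near-equal readings for Mmp13, Mmp9, Mmp2, Mmp3 and Mmp10 on both sets of arrays and the near-equal differences between the knockdowns against both controls are 1 and the same property of the 4 values. With the arrays scaled to 1 spread limma called 0 genes of the family between the controls, and 2 had an unadjusted p under 0.05.

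**Figure D3:**
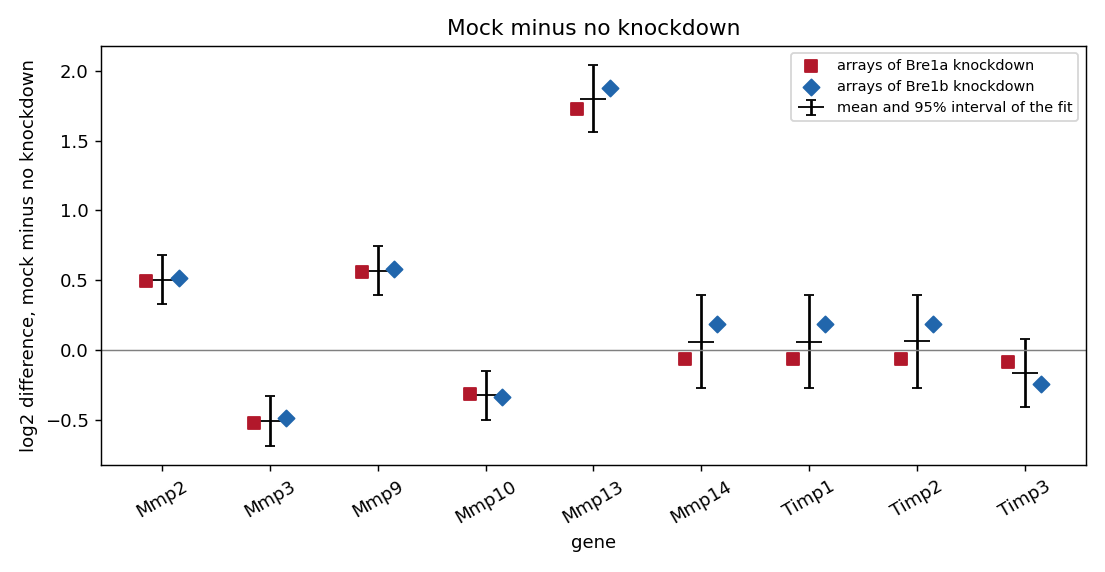
Log2 difference of mock minus no knockdown cells (y axis) for 9 genes (x axis; Adam12 is left out), read from the arrays of Bre1a knockdown (squares) and of Bre1b knockdown (diamonds), with black bars for the mean and 95% interval of the limma fit. Mmp13 stands highest at 1.73 and 1.88, Mmp2 and Mmp9 lie near 0.5, and Mmp3 and Mmp10 lie below 0.

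The cluster on chromosome 9 that holds Mmp13, Mmp3 and Mmp10 has 10 protein-coding Mmp genes in a row in RefSeq, of which 4 had a complete probe. The other one was Mmp1b, a collagenase-like gene that lies between Mmp13 and Mmp3. Mmp1b read -1.07 and -1.86 on the Bre1a arrays and 0.48 and -0.04 on the Bre1b arrays. It fell after Bre1a knockdown (-1.47 ± 0.55; SD, n = 2; limma adjusted p = 0.0212) and was at 0.22 after Bre1b knockdown (limma adjusted p = 0.0877), a difference of -1.69 between the knockdowns (limma adjusted p = 0.0372). Of the 4 measured neighbours Mmp13, Mmp1b and Mmp10 were thus called lower after Bre1a than after Bre1b knockdown, beside 13.2% of all genes. Mmp3, which lies among them, was at -0.31 and not called. With the arrays scaled to 1 spread limma called 0 of all genes in this comparison, so the calls in the cluster are a description.

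Other genes of pericellular proteolysis were counted from lists of 137 genes, of which 74 were tested. After Bre1a knockdown 13 rose and 25 fell, and after Bre1b knockdown 23 rose and 24 fell, with medians of -0.06 and -0.03. These are 17.6% higher and 33.8% lower for Bre1a, beside 21.1% and 19.9% of all genes, and 31.1% higher and 32.4% lower for Bre1b, beside 32.3% and 28.2%. Among Adam and Adamts proteases 1 of 13 rose and 6 fell after Bre1a knockdown, and 2 rose and 7 fell after Bre1b knockdown. Adamts12 fell in both (-1.48 and -1.43), as did Adam8 (-0.50 and -0.53) and Adam15 (-0.26 and -0.55), and Adam19 rose in both (0.59 and 0.49). Adamts1, which cleaves proteoglycans, was at -0.46 after Bre1a and 0.71 after Bre1b knockdown, a called difference of -1.16 (limma adjusted p = 0.0372). Of the 3 further Mmp genes tested, Mmp11 fell after Bre1b knockdown (-0.66) and was at -0.16 after Bre1a knockdown (limma adjusted p = 0.0929).

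In the plasminogen system, whose plasmin activates several Mmp precursors, 3 of 6 tested genes rose after Bre1a knockdown and 0 fell, while 3 rose and 1 fell after Bre1b knockdown. Over all genes 21.1% were higher and 19.9% lower for Bre1a, and 32.3% and 28.2% for Bre1b. Of the 6 genes, S100a10 and Anxa2 sat at the repeated value on all 4 arrays, so the data do not show whether they changed. Plau was called higher in both, but read 0.73 against no knockdown and -0.11 against mock on the Bre1a arrays. On the Bre1b arrays it read 0.92 and 0.03. Serpinb2, an inhibitor of urokinase, read 1.51 and 2.47 on the Bre1a arrays and 2.87 and 4.47 on the Bre1b arrays, high on all 4. The urokinase receptor Plaur rose by 0.36 after Bre1a and by 0.90 after Bre1b knockdown, and the activator Plat was at -0.75 after Bre1b knockdown (limma adjusted p = 0.0142). Among activators, anchors, inhibitors and clearance factors 2 of 9 rose and 1 fell after Bre1a knockdown, and 4 rose and 3 fell after Bre1b knockdown. Cav1, among the 9, sat at the repeated value on all 4 arrays. The hyaluronan receptor Cd44, a docking site for Mmp9, was at 1.19 after Bre1b knockdown (limma adjusted p = 0.0108), and the integrin chain Itgav rose in both (0.64 and 0.72). Reck, a membrane-anchored Mmp inhibitor, fell after Bre1b knockdown (-0.87), with -0.27 against no knockdown and -1.47 against mock. Thbs2, which helps clear Mmp2, was called lower in both (-1.27 and -0.33). On the Bre1b arrays it read -0.63 against no knockdown but -0.02 against mock.

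Of 19 tested transcription factors known to act on Mmp promoters 3 rose and 9 fell after Bre1a knockdown, and 9 rose and 5 fell after Bre1b knockdown. In percent these are 15.8 and 47.4 for Bre1a, beside 21.1 and 19.9 over all genes, and 47.4 and 26.3 for Bre1b, beside 32.3 and 28.2. The AP-1 subunit Fos read -1.55 and -0.65 on the Bre1a arrays and 0.41 and 1.36 on the Bre1b arrays. The difference between the knockdowns was -1.98 for Fos (limma adjusted p = 0.0372). Fosb differed by -1.07 in the same direction (limma adjusted p = 0.0372). The other AP-1 subunits were not alike. Fosl1 was called higher in both (0.33 after Bre1a and 0.51 after Bre1b knockdown). Fosl2 (0.23 and 0.69) and Junb (-0.06 and 0.56) were called higher after Bre1b knockdown only. Jun (-0.26 and -0.08) was called lower after Bre1a knockdown only, and Jund (-0.97 and -0.16) was called in neither. Between the knockdowns 0 of the 19 were called higher and 7 lower, beside 11.7% and 13.2% of all genes. Ets1 rose in both (0.49 and 0.87), and Snai2 (-0.78 and -0.38) and Etv5 (-0.36 and -0.86) fell in both. A link between these factors and the Mmp genes was not tested.

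**Figure D4:**
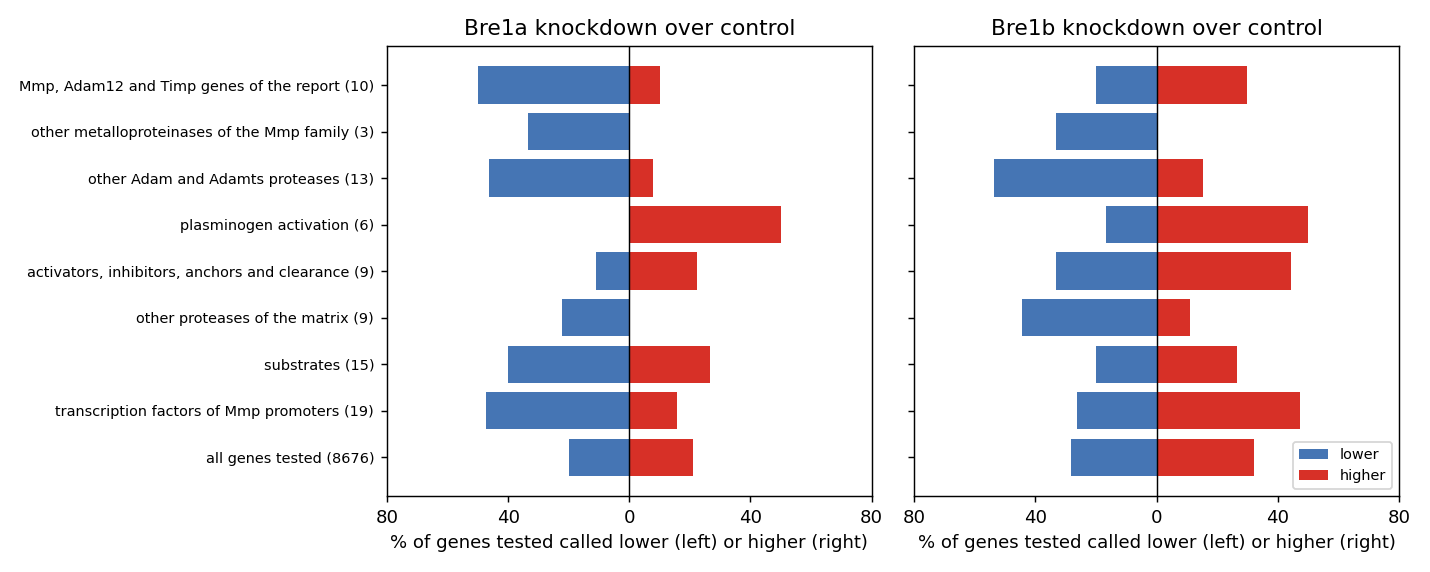
Share of tested genes called lower (blue, to the left) or higher (red, to the right) at limma adjusted p under 0.05, in percent (x axis), for the 10 genes of the family, each list of related genes and all genes (rows, with the number tested), after Bre1a (left panel) and Bre1b knockdown (right panel). In the family 5 of 10 genes were lower after Bre1a knockdown. No plasminogen gene was lower there, with S100a10 and Anxa2 at the repeated value on all arrays.

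The genes whose 4 values were most like those of a family member were found by Euclidean distance in log2 units, for members with a mean of at least 1 in size. For Mmp9 they were Ltc4s (distance 0.108), Tlr5 (0.221) and Sirpa (0.233). For Mmp10 they were Cacna1c (0.372), Sod3 (0.379) and Cldn12 (0.390). For Mmp13 the nearest were Igf1 (0.485), with -0.89 and -2.07 on the Bre1a arrays and 0.35 and -1.65 on the Bre1b arrays, then Krt8 (0.632) and Acpp (0.695). For Adam12 the nearest gene, Gp9, was 1.57 away. These distances rest on 4 arrays and describe likeness only.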

How the data were processed

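Log2 ratios of Cy5 (knockdown) over Cy3 (control) were deposited for 38784 spots on each of 4 arrays. The labels name no scale, which was read from the values. Image software, background correction and normalization: not given in the sources used here. Dyes, and so the direction of each ratio, are those of the labels. Probes were named through GEO's platform annotation, and gene IDs were matched to symbols in RefSeq (GRCm38.p6, for names only): 22204 had 1 symbol, 0 several and 16580 none. Named probes with a value on all 4 arrays (12958) were averaged per symbol into 8676 genes. Array medians of all spots ran from -0.033 to 0.014. No value column was left without a sample.

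The test was limma's two-sided moderated test (version 3.58.1, R 4.3.3; lmFit and eBayes), adjusted by Benjamini and Hochberg over the 8676 genes and called under 0.05. The model had a coefficient for each knockdown and a term for the control. It leaves 1 residual degree of freedom beside 1.57 prior ones. The control is the replicate number of the titles. Over genes, the deviations of the arrays with the same control correlated at r = 0.602 between the knockdowns, so the control pairs the arrays. Alternatives were no control term, arrays centred or scaled, no spots at the repeated value, single probes, incomplete probes added, a minimum change of 1.2-fold, and each array left out in turn.

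Named were all members, up to 2 called genes with the highest and up to 2 with the lowest value per list and comparison (of these the text gives a part), the targets and the 3 nearest genes. Promoter sequences are from RefSeq, for 7 of the 10 genes. The members and lists were chosen with earlier results of these data known. The number of arrays limits the precision.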

Additional observations from a re-analysis of the deposited data

Results flagged for a closer look

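The difference between the knockdowns, Bre1a minus Bre1b, passed the test for 5 genes of the family. It was -0.56 for Mmp2, 0.53 for Mmp9, -1.66 for Mmp10, -1.06 for Mmp13 and -0.94 for Timp3 (log2, limma, mean over both controls). Mmp10 and Timp3 had a negative mean after Bre1a and a positive mean after Bre1b knockdown, the Bre1b mean not called for either gene with the arrays scaled to 1 spread (adjusted p = 0.0769 and 0.118) nor for Timp3 with them centred (0.0512), while Mmp9 and Mmp13 had a negative mean after both.

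A probe of Adam12 that lacked a value on the Bre1b array against mock, and so took no part in the test, was below 0 on the other 3 arrays, its value nearest to 0 being -0.60. It disagreed in sign with the tested Adam12 probe on the Bre1a array against no knockdown.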

How the results depend on the processing

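The calls depended on the model. By the balanced design, dropping the control term leaves each mean as it was, and so does the minimum change. Unchanged means under those settings are therefore no sign of stability, and leaving out an array did move means. With no replicate block, which drops the control term, 0 of the 10 genes and 0 of the 74 related genes were called in each of the 3 comparisons it can make, and the paired fit with the control is the one reported. Leaving out each array in turn, also without that term, gave 0 calls among the 10 genes for Bre1a, 0 to 2 for Bre1b and 0 to 1 for the difference, and among related genes 0 to 1, 0 to 10 and 0. A lone array was there assumed to vary like the pair of the other knockdown. With a minimum change of 1.2-fold 3 of the 10 genes were called for Bre1a (14 related genes), and 30 related genes for Bre1b. With the arrays scaled to 1 spread 2 of the 10 and 24 related genes were called for Bre1b. Scaling, the 1.2-fold minimum, single probes and incomplete probes each gave 0 limma calls for the difference of the knockdowns and for that of the controls, in the family, among related genes and over all genes. At an unadjusted p under 0.05 these settings left 1650 to 7863 of all genes or probes and 2 to 10 of the family. The causes were not tested.

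Of 390 values of single genes under an alternative, 10 changed sign, 247 kept sign and side of the threshold, 127 lost and 6 gained a call. The 390 include Mmp14, Timp1 and Timp2, which sat at the repeated value, and settings that cannot change a mean. The 247 therefore overstate how well the measured genes held. Centred on medians, Mmp14, Timp1 and Timp2 for Bre1b were at -0.003, -0.0035 and -0.0025. With single arrays left out, the Bre1b value ran from -0.164 to 0.354 for Mmp2, from -1.56 to 0.314 for Mmp13, from -0.078 to 0.11 for Mmp14, from -0.079 to 0.11 for Timp1 and from -0.078 to 0.111 for Timp2, and the Bre1a value from -0.226 to 1.96 for Adam12. The first probe of Timp3 alone gave 0.049 for mock minus no knockdown. Among the alternatives that used all arrays, Adam12 for Bre1b was called in only some. These were the arrays centred on their medians (limma adjusted p = 0.0308) and incomplete probes added (limma adjusted p = 0.0146), which averages probes that disagree. Leaving out either Bre1a array gives the same Bre1b mean of -3.38, so these are not separate results. Without spots at the repeated value Mmp3 was called between the knockdowns (adjusted p = 0.0484). Without intensities, which were not analysed here, signal over background is unknown. No fit without the control term gives a value between the controls.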

Other observations

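Other proteases of the matrix were mostly cathepsins and serine proteases. Of 9 tested, 0 rose and 2 fell after Bre1a knockdown, the lysosomal cathepsins Ctsb (-0.39) and Ctsl (-0.34). Htra1, among the 9, sat at the repeated value on all 4 arrays, so the data do not show whether it changed. After Bre1b knockdown 1 rose, Ctsl (0.39), and 4 fell, including Ctsb (-0.47) and the serine proteases Prss23 (-1.77) and Htra3 (-0.54). These counts are 0% and 22.2% for Bre1a and 11.1% and 44.4% for Bre1b, beside 21.1% and 19.9%, and 32.3% and 28.2%, of all genes in the same order. Ctsl thus lay below 0 on both Bre1a arrays (-0.28 and -0.39) and above 0 on both Bre1b arrays (0.41 and 0.36), with a called difference of -0.72 (limma adjusted p = 0.0372). Prss23 rested on the mock array, with -0.52 against no knockdown and -3.02 against mock. Its difference of mock minus no knockdown, read across arrays, was 3.03 (limma adjusted p = 0.0477).

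Of the substrates of these proteases 4 of 15 rose and 6 fell after Bre1a knockdown, and 4 rose and 3 fell after Bre1b knockdown. In percent these are 26.7 and 40 for Bre1a, beside 21.1 and 19.9 over all genes, and 26.7 and 20 for Bre1b, beside 32.3 and 28.2. The proteoglycan decorin (Dcn) fell in both (-1.04 and -1.07), and the basement membrane linker nidogen (Nid1) rose in both (1.01 and 0.93). Tenascin C (Tnc) read -1.68 and -0.25 on the Bre1a arrays and 0.03 and 1.43 on the Bre1b arrays, a called difference of -1.70 (limma adjusted p = 0.0372). The collagen IV chain Col4a1 was higher after Bre1a than after Bre1b knockdown by 0.71 (limma adjusted p = 0.0378), and Col4a2 by 0.43 (limma adjusted p = 0.0423).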
